A study of Mus musculus with 3 samples.

Results

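The claudins are described here across the cell types of the mouse gallbladder, with the epithelium and the endothelium first. The 8 genes read were Cldn1, Cldn2, Cldn3, Cldn4, Cldn5, Cldn7, Cldn8 and Cldn10, found by symbol among the 31053 genes of the deposited count matrix. The study gavaged male C57BL/6 mice with nanoplastics for 3 weeks, which its design calls acute, with nanoplastics for 6 weeks, called chronic, or with vehicle for 6 weeks. Each group was 1 single-cell 3′ library from 10 gallbladders pooled and dissociated with trypsin, so there were no replicates. The matrix joins the 3 libraries and tells them apart only by a suffix of 1, 2 or 3 on the cell barcode. No label pairs a suffix with a group, so libraries 1, 2 and 3 were read as unassigned samples and no comparison of exposure with vehicle was made.

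Claudins are small membrane proteins that link neighbouring cells at the tight junction, the seal that sets what passes between cells. Barrier-forming members such as claudin-3 and claudin-4 tighten that path, whereas claudin-2, claudin-10 and claudin-15 form pores for small ions and, for claudin-2, water. The gallbladder lining concentrates bile by absorbing salt and water, so the mix of sealing and pore-forming claudins is of interest there, and claudin-5 is the principal claudin of vessels.

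Of 27700 barcodes, 24993 were kept as cells, 4263, 10933 and 9797 in libraries 1, 2 and 3, with a median of 10381, 9330 and 2288 UMIs (molecules counted) per cell. Library 3 stands apart in this depth, although its epithelial-like cells do not, with medians of 27793.5, 12400 and 13455 UMIs in libraries 1, 2 and 3. In library 1 a cluster of 95 cells that no other library held was left unnamed. Among the kept cells, 43 barcode sequences occurred in more than 1 library. Cell types were clusters of cells, made without any claudin gene and named from markers, and each cell also had to hold at least 2 of its type's markers. This placed 22770 cells in a type and left 2223 unnamed. The epithelial-like cells numbered 9354, and each keratin or adhesion marker of that type, from Krt7 to Krt8, was detected in 93.2% to 99.9% of them. The 1179 blood endothelial-like cells carried their markers in 73.3% (Cdh5) to 92.2% (Flt1) of cells, and the 262 lymphatic endothelial-like cells in 63.4% (Ccl21a) to 96.9% (Mmrn1).

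Levels are CPM, the counts of a gene per 1000000 UMIs of a cell type within a library. The count is of 3′ ends and carries no gene-length factor. Other differences in how fully each gene is counted were not tested, so genes are set side by side only as counted. Intervals in square brackets are 95% intervals of the counting error alone, and differences between cells and between animals add spread that they do not hold. With no replicate there was no test. A gene was counted as higher or lower only when it differed 2-fold or more in every library used, with at least 20 UMIs over both cell types.

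Epithelial RNA released during dissociation gives stray UMIs in other cells, and T cell-like cells, which should lack these claudins, were taken as its gauge. There the summed epithelial markers stood at 3.22%, 6.48% and 11% of their epithelial level in libraries 1, 2 and 3. The summed Cldn2, Cldn3, Cldn4 and Cldn7 stood at 2.42%, 4.80% and 8.95% of theirs, close to the markers. Other cell types differed from this gauge. For example, the summed markers stood at 2.04% in fibroblast-like cells of library 1 and 31.8% in pericyte-like cells of library 2.

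Among the 8 members, 5 were epithelial and 1 endothelial in the comparison of these linings. Cldn7, Cldn3, Cldn4, Cldn2 and Cldn8 were each higher in epithelial-like than in blood endothelial-like cells in all 3 libraries, and Cldn5 was lower. These are 5 of the 6 members with enough UMIs for the comparison, where 12.9% of 12953 genes were higher by the same rule, and 1 of 6 where 15.9% were lower. Cldn1, with 18 UMIs in epithelial-like cells and 4 in blood endothelial-like cells, and Cldn10, with 11 and 0, did not reach the 20 UMIs in every library. Of the other claudins in the matrix, 3 could be compared, with Cldn23 higher and Cldn15 lower in epithelial-like cells. The same 5 epithelial members were also the ones whose highest level over all cell types lay in epithelial-like cells.

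**Figure D1:**
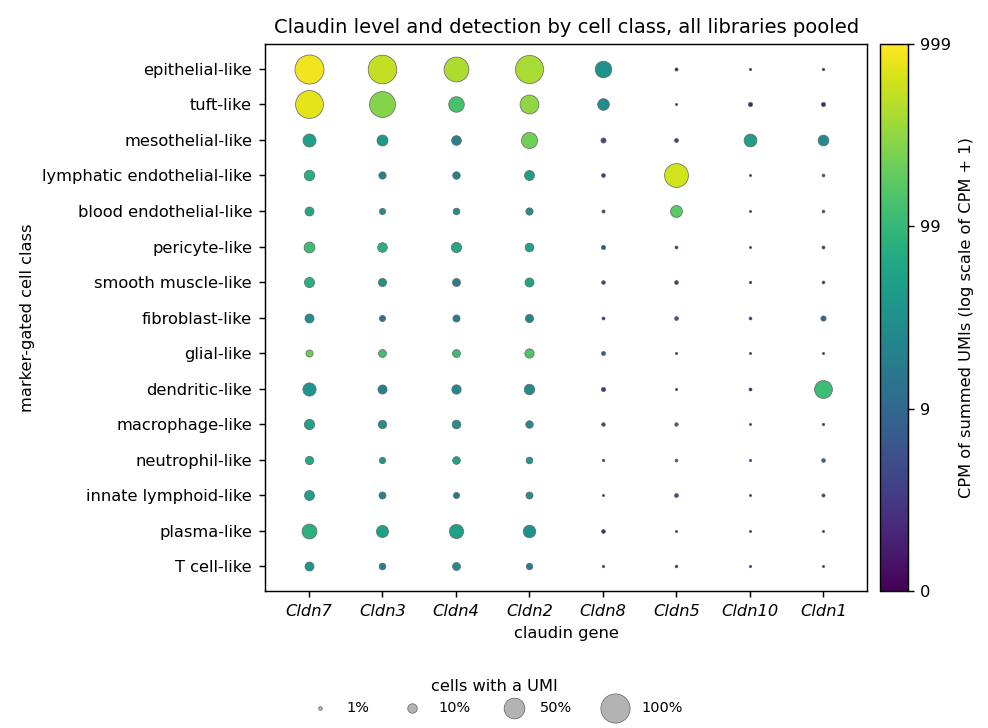
Level and detection of the 8 claudins in each marker-named cell type, pooled over the 3 libraries, with colour for CPM (log scale of CPM + 1) and dot area for the share of cells with a UMI (%). Cldn7, Cldn3, Cldn4, Cldn2 and Cldn8 peak in the epithelial-like and tuft-like rows, Cldn5 in the lymphatic and blood endothelial-like rows, Cldn10 in mesothelial-like cells and Cldn1 in dendritic-like cells.

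Cldn7, which is found along the lateral membrane of epithelial cells as well as at the tight junction, was the most abundant. It stood at 892, 879 and 704 CPM in epithelial-like cells of libraries 1, 2 and 3, against 63.3, 64.0 and 54.1 CPM in blood endothelial-like cells. A UMI of it was present in 99.7%, 99.4% and 96.0% of epithelial-like cells. The same share over all libraries was 98.9% in epithelial-like cells and 8.92% in T cell-like cells. Pooled, the epithelial level was 852 CPM [848–857], 14.3-fold [12.4–16.7] above blood endothelium, with 14.1, 13.7 and 13.0-fold in the single libraries.

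Cldn3, a sealing claudin and a receptor of Clostridium perfringens enterotoxin, was second to Cldn7 in library 2, below Cldn4 in library 1 and below Cldn2 in library 3. It stood at 583, 578 and 276 CPM in epithelial-like cells, against 43.1, 31.2 and 17.8 CPM in blood endothelial-like cells, or 13.5, 18.5 and 15.5-fold higher. Library 3 held less than either other library. Cldn4, its neighbour on the chromosome and a receptor of the same toxin, stood at 632, 413 and 158 CPM in epithelial-like cells, against 36.7, 37.5 and 12.6 CPM in blood endothelial-like cells. That is 17.2, 11 and 12.6-fold higher, and library 3 was again the lowest. Cldn2, the pore-forming member, ran the other way over the libraries, at 378, 357 and 592 CPM in epithelial-like cells, against 13.8, 28.1 and 39.2 CPM in blood endothelial-like cells, 27.5, 12.7 and 15.1-fold higher. Cldn8, a barrier claudin of the distal nephron and colon that helps bring claudin-4 to the junction in kidney cells, was far scarcer, at 37.8, 28.1 and 31.6 CPM in epithelial-like cells, against 7 UMIs in all blood endothelial-like cells. Its pooled fold was 13.8 [6.70–34.4].

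Blood endothelial-like cells also held epithelial markers. There the summed Cldn2, Cldn3, Cldn4 and Cldn7 stood at 6.31%, 7.22% and 7.14% of their epithelial level, and the summed epithelial markers at 7.57%, 8.23% and 9.38% of theirs. Both shares exceed those of T cell-like cells in libraries 1 and 2, and in library 3 both are lower. The part of stray RNA in the endothelial values was not tested, and Cldn8 was too scarce there to be set beside them.

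Cldn5 showed the reverse. Epithelial-like cells held 9, 12 and 40 UMIs of it, or 0.188, 0.127 and 1.32 CPM, against 185, 150 and 172 CPM in blood endothelial-like cells. As counted, its level was 988, 1179 and 130-fold lower in epithelial-like cells. T cell-like cells held 0, 2 and 2 UMIs of it, with an upper 95% bound above the epithelial level in each library, so the epithelial value is not told apart from stray RNA and the folds carry no exact size.

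Cldn3 and Cldn4 lie on chromosome 5 (GRCm38), Cldn3 at chr5:134986214-134987472 on the plus strand and Cldn4 at chr5:134945119-134946934 on the minus strand, 39279 bases apart with 0 protein-coding genes between them. Both have 1 annotated transcript. Cldn3 is overlapped on the other strand by Wbscr25, which was counted separately with 485 UMIs in epithelial-like cells, against 90823 for Cldn3. The promoters of these neighbours are printed because the genes differ in their pattern within the epithelium, described next, and that of Cldn2 because it runs opposite to Cldn4. Each runs from 250 bases before to 50 after the RefSeq start on GRCm38.p6, 5′ to 3′ on the gene's strand. Capitals mark matches, on either strand, to the AP-1 motif TGACTCA and the TATA box TATAAA.
Cldn4, chr5:134946885-134947184, minus strand: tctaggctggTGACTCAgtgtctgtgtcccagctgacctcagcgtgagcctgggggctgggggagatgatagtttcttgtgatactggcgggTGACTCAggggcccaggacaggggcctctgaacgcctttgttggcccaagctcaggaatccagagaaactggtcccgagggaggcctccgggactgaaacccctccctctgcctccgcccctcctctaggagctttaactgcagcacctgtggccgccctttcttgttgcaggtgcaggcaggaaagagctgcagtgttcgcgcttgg
Cldn3, chr5:134985964-134986263, plus strand: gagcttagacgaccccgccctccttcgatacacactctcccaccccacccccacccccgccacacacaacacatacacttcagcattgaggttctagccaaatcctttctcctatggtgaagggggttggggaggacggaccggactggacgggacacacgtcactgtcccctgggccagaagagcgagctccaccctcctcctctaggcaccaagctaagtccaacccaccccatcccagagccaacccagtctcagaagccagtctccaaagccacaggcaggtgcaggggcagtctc
Cldn2, chrX:139800558-139800857, plus strand: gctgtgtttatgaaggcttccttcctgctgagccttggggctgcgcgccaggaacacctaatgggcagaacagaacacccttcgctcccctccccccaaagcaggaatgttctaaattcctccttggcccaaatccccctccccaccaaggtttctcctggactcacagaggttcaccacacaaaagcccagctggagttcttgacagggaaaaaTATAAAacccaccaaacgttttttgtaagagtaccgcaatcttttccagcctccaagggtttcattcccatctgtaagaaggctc

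The Cldn4 window holds 2 AP-1 matches, beginning 240 and 158 bases before the start, and the Cldn3 window holds 0, as do the other promoter windows of the members. Among all 32851 promoters of the same length, 5.20% hold the motif. The Cldn2 window holds a TATA box match that begins 35 bases before the start, a motif found in 13.6% of promoters. Further letters searched on both strands were the E-box CACCTG, with 2 matches in the Cldn4 window and 1 in the Cldn3 window (20.2% of promoters hold it), the GC box GGGCGG, with 2 and 1 (35.7%), and the CDX motif TTTATG, with 1 in the Cldn2 window (11.9%). The grainyhead motif AACNNGTT and the NF-kB motif had no match in these 3 windows. A match is a description of the letters only. RefSeq entries were at hand for 7 of the 8 members, all but Cldn8.

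Within the epithelium, Cldn4 and Cldn8 were higher in Lcn2-high than in Aqp1-high cells by the 2-fold rule, and no member was lower by it. Cldn3 had somewhat more and Cldn2 somewhat less in Lcn2-high cells, both short of 2-fold in every library, and Cldn7 was nearly level. Epithelial-like cells were split by 2 genes that are no claudins, the secreted iron-scavenging protein Lcn2 at 300 CPM and the water channel Aqp1 at 200 CPM, cuts set from the spread of those 2 genes. This gave 3322 Lcn2-high cells (35.5%), 1383 low in both (14.8%), 263 high in both (2.81%) and 4386 Aqp1-high cells (46.9%). These are ranges and not cell types, and 1858 cells (19.9%) lay within 2-fold of a cut. Lcn2-high cells also carried the secreted Ltf and Tff2, with medians over cells of 1114 and 1316 CPM, against 0 and 96.3 CPM in Aqp1-high cells. The bicarbonate cotransporter Slc4a4 was present in both kinds, at 1610 CPM in Aqp1-high and 680 CPM in Lcn2-high cells. The transporter gene Slc10a2 had the opposite order, at 147 CPM in Aqp1-high and 208 CPM in Lcn2-high cells. The kinds took different shares of the libraries, since Lcn2-high cells made up 42.3%, 37.8% and 19.4% of epithelial-like cells in libraries 1, 2 and 3, and Aqp1-high cells 33.6%, 46.3% and 62.3%. Most Lcn2-high cells lay in cluster 1 (75.7%) and most Aqp1-high cells in cluster 0 (67.2%) or in cluster 7 (19.9%), which holds 882 cells of library 3 among its 926.

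Cldn4 stood at 935 [922–949], 732 [723–742] and 505 [487–524] CPM in Lcn2-high cells of libraries 1, 2 and 3, against 181 [175–188], 164 [161–168] and 39.7 [37.0–42.6] CPM in Aqp1-high cells. The ranges did not overlap, with the lowest Lcn2-high library above the highest Aqp1-high one. The fold was 5.16, 4.45 and 12.7, or 5.62 [5.51–5.74] pooled, and a UMI was present in 94.3% of Lcn2-high and 53.1% of Aqp1-high cells. In library 3 the Aqp1-high level lay within the counting interval of the T cell-like level, 20.2 CPM [7.41–44]. It lay above that of neutrophil-like cells, 16.6 CPM [7.15–32.6]. Fibroblast cluster 2 and smooth muscle cluster 6 held 8.85 and 10.0 CPM there, from 30 and 37 UMIs. Of the named clusters with at least 20 cells in library 3, other than epithelial and tuft ones, only neutrophil cluster 5 was higher, at 90.3 CPM from 2 UMIs. The part of stray RNA in the Aqp1-high value was not tested.

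Cldn8 was higher by a like factor at a much lower level. It stood at 59.0, 54.4 and 79.6 CPM in Lcn2-high cells, against 6.78, 7.06 and 11.8 CPM in Aqp1-high cells, 8.72, 7.71 and 6.78-fold higher, or 7.21 [6.63–7.83] pooled. T cell-like cells held 2 UMIs of it in all, 0.601 CPM, below even the Aqp1-high cells. Cldn4 and Cldn8 were thus 2 of the 5 members tested between these kinds, where 5.59% of 12298 genes were higher by the same rule and 3.2% lower.

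Cldn2 was lower in Lcn2-high cells in each library, although by less than the 2-fold rule. It stood at 322, 278 and 364 CPM in Lcn2-high cells, against 498, 422 and 693 CPM in Aqp1-high cells, a fold of 0.647, 0.659 and 0.525. With a rule of 1.5-fold it was the 1 member counted as lower. Cldn3 lay between, at 680, 715 and 395 CPM in Lcn2-high cells and 460, 478 and 232 CPM in Aqp1-high cells, a fold of 1.48, 1.5 and 1.70. Cldn7 was nearly level, at 850, 866 and 670 CPM in Lcn2-high cells and 987, 902 and 741 CPM in Aqp1-high cells, a fold of 0.861, 0.960 and 0.905. The ratio of Cldn4 to Cldn2 was 2.90, 2.64 and 1.39 in Lcn2-high cells, against 0.364, 0.390 and 0.0573 in Aqp1-high cells, so the more abundant member of the pair changed between the kinds in every library.

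**Figure D2:**
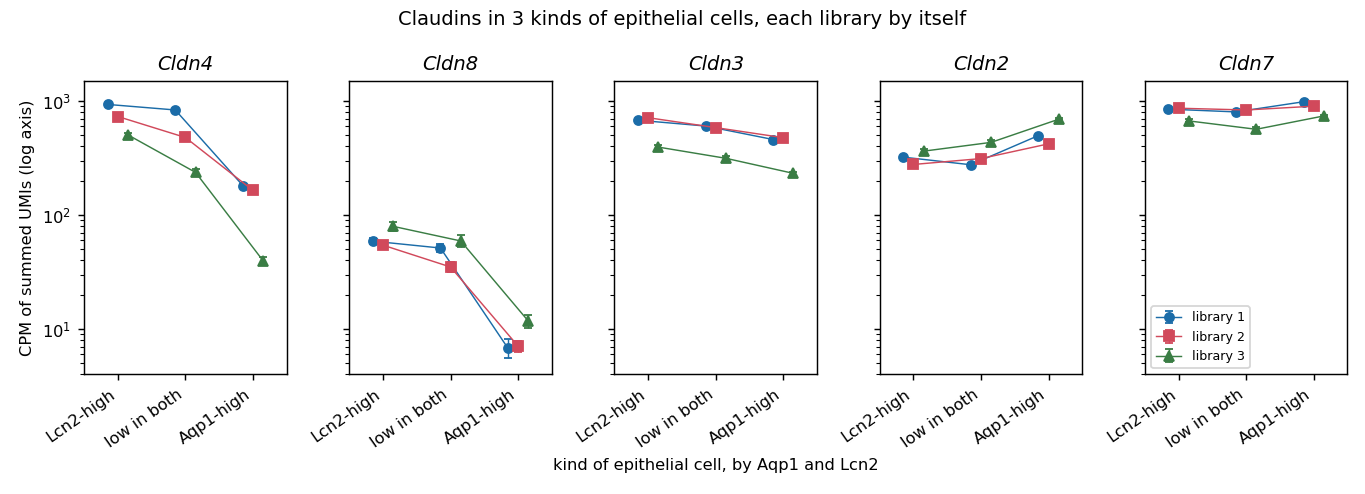
Level (CPM, log axis) of the 5 epithelial claudins in the Lcn2-high, low-in-both and Aqp1-high kinds of epithelial-like cells. Each point is 1 library, lines join the points of a library and bars are 95% Poisson intervals, so Cldn4 is seen at 505 to 935 CPM in Lcn2-high and 39.7 to 181 CPM in Aqp1-high cells, while Cldn7 stays between 566 and 987 CPM in all 3 kinds.

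Cells low in both genes stood between the kinds for Cldn4 and near the Lcn2-high cells for Cldn2. Their Cldn4 was 836, 479 and 237 CPM and their Cldn8 51.4, 35 and 59.3 CPM, 4.61, 2.92 and 5.97-fold and 7.58, 4.96 and 5.04-fold above Aqp1-high cells. Again 2 of 5 members passed the 2-fold rule as higher, where 2.7% of genes did, and 0 as lower, where 1.19% did. Their Cldn2 stood at 276, 313 and 434 CPM, below the Aqp1-high cells of each library. The 263 cells high in both genes had pooled levels of 436 CPM for Cldn4, 32.9 CPM for Cldn8 and 392 CPM for Cldn2, each between the Lcn2-high and Aqp1-high values.

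The change did not sit at a single cut. Ordered by Lcn2 from 0 to 3000 CPM and above in 6 bands, the pooled level of Cldn4 was 190, 249, 463, 698, 731 and 781 CPM, that of Cldn8 was 11.9, 17.4, 38.4, 52.5, 57.0 and 57.4 CPM, and that of Cldn2 was 487, 445, 370, 337, 327 and 287 CPM. Pooled, Cldn4 and Cldn8 had most of their range below 1000 CPM of Lcn2, while in library 3 Cldn4 still climbed from 366 CPM in the band of 300 to 1000 CPM to 558 CPM in the top band. Pooled Cldn3 also climbed from band to band, from 418 to 708 CPM, and Cldn7 stayed between 787 and 884 CPM with no order. The steps differed between libraries, since the band of 100 to 300 CPM of Lcn2 held 806, 370 and 235 CPM of Cldn4 in libraries 1, 2 and 3. Ordered by Aqp1 in 6 bands from 0 to 1000 CPM and above, Cldn4 ran the opposite way, at 791, 664, 425, 255, 156 and 103 CPM, and Cldn2 climbed from 294 to 584 CPM.

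**Figure D3:**
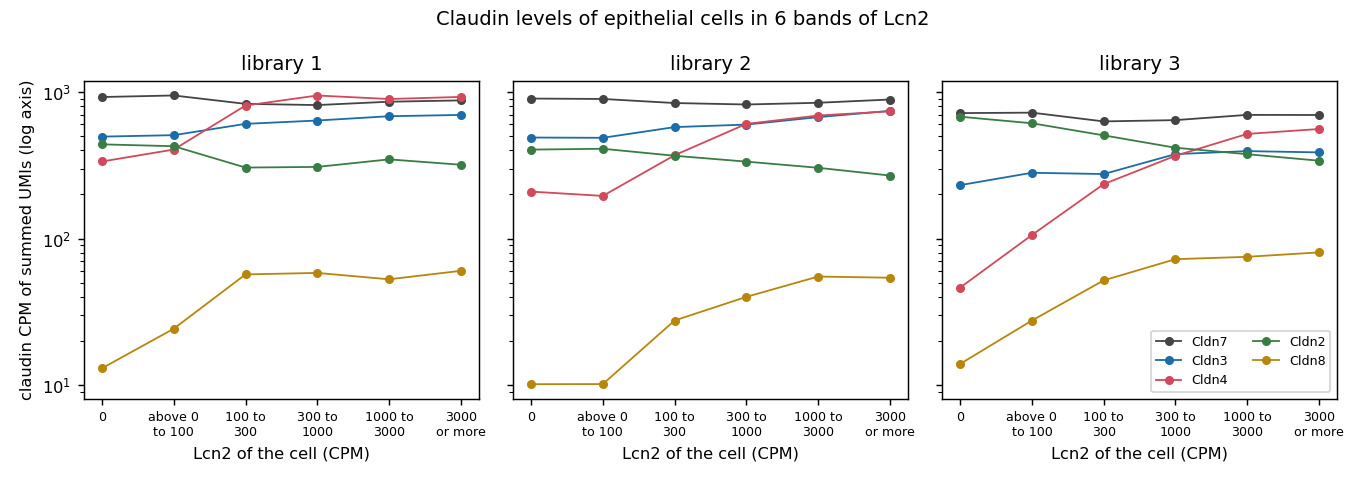
Level (CPM, log axis) of the 5 epithelial claudins in epithelial-like cells placed in 6 bands of Lcn2, from 0 CPM to 3000 CPM and above, with 1 panel for each library. In library 3 Cldn4 climbs from 46.4 CPM in the lowest band to 558 CPM in the highest, in library 1 from 335 to 923 CPM, and Cldn2 is lower in the top band than in the lowest in each panel.

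The claudin make-up of the kinds differed accordingly. Of all claudin UMIs, pooled over libraries, Cldn7 took 30.6%, Cldn4 28.3%, Cldn3 24.4%, Cldn2 10.9% and Cldn8 2.12% in Lcn2-high cells. In Aqp1-high cells the shares were 44% for Cldn7, 25% for Cldn2, 20.7% for Cldn3, 6.90% for Cldn4 and 0.405% for Cldn8. The libraries differed in this make-up. The ratio of Cldn4 to Cldn7 was 1.10, 0.846 and 0.753 in Lcn2-high cells of libraries 1, 2 and 3. In Aqp1-high cells it was 0.184, 0.182 and 0.0536, and that of Cldn2 to Cldn7 was 0.505, 0.467 and 0.935. The pooled sum over all claudins was 2752 CPM in Lcn2-high, 2368 CPM in low-in-both and 2006 CPM in Aqp1-high cells. The 8 members made up 96.6% of epithelial claudin UMIs.

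**Figure D4:**
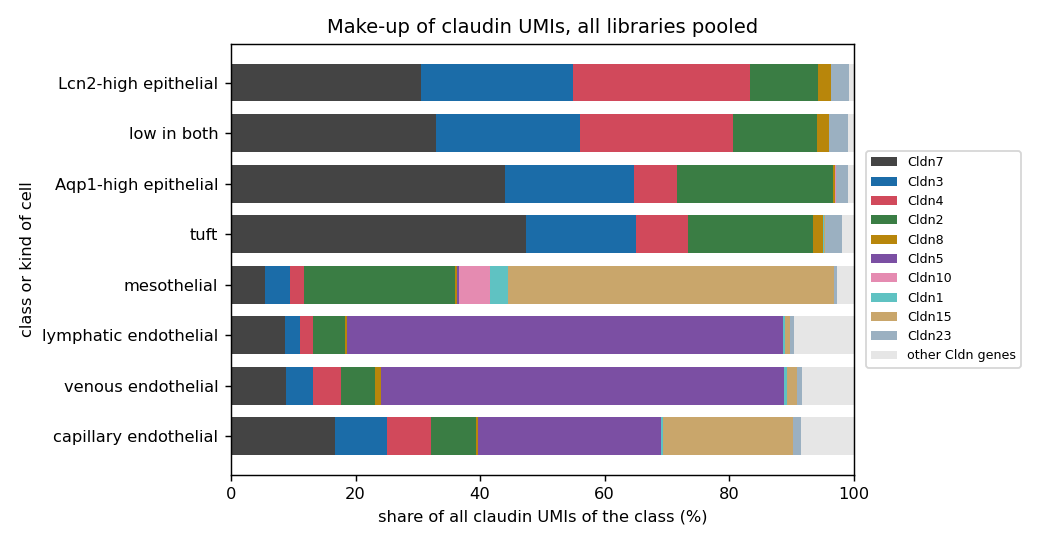
Share (%) of all claudin UMIs taken by each claudin in the epithelial kinds and in tuft-like, mesothelial-like, lymphatic, venous and capillary cells, pooled over libraries. Cldn4 takes 28.3% in Lcn2-high and 6.90% in Aqp1-high cells, Cldn15 takes 52.4% in mesothelial-like cells, and Cldn5 takes 70.0% in lymphatic endothelial-like cells.

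Detection was also read in single cells. With each cell thinned to 5000 UMIs, 3188 Lcn2-high and 4185 Aqp1-high cells remained. Cldn4 was then detected in 87.8% of Lcn2-high and 33.5% of Aqp1-high cells, Cldn8 in 24.0% and 3.85%, and Cldn2 in 70.9% and 85.0%. Cldn7 was detected in 97.6% of Lcn2-high and 97.5% of Aqp1-high cells. Cldn2 and Cldn4 occurred in the same cell in 61.4% of Lcn2-high cells, where independence of the pair would give 62.2%, and in 27.7% of Aqp1-high cells, where it would give 28.4%. This pair is pooled over libraries, and stray UMIs were not removed. All 5 epithelial members were found in 13.5% of Lcn2-high and 1.0% of Aqp1-high cells.

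Cells with many interferon-stimulated transcripts were set against the rest of their kind. Of 1105 epithelial-like cells with at least 3 of 6 interferon markers, 429 were Lcn2-high and 412 Aqp1-high. Against cells of the same kind with 0 of the markers, 0 of 5 members passed the rule in either kind, where 0.18% of genes were higher and 0.0423% lower in Lcn2-high cells, and 0.172% and 0.0303% in Aqp1-high cells. With so few genes passing, a count of 0 says nothing particular of the claudins. The folds of Cldn4 were 1.15, 1.06 and 1.32 in Lcn2-high and 1.17, 1.03 and 1.35 in Aqp1-high cells. Library 3 held only 23 Lcn2-high and 36 Aqp1-high cells with at least 3 markers. Such cells were deeper, with medians of 35903, 12186.5 and 38322 UMIs in Lcn2-high cells of libraries 1, 2 and 3. Lcn2-high cells with 0 markers had medians of 24067, 11071 and 8467 UMIs, and Aqp1-high cells differed in the same direction. The part of depth in these folds was not tested.

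In epithelial-like cells 3 of 6 members differed 2-fold or more between the highest and the lowest library, as did 31.1% of genes. Cldn4 ranged 3.99-fold and Cldn3 2.11-fold, while the 10.4-fold range of Cldn5 lies at a level not told apart from stray RNA. Cldn2, Cldn8 and Cldn7 ranged 1.66, 1.34 and 1.27-fold. Library 3 was lowest for Cldn3, Cldn4 and Cldn7 and highest for Cldn2 and Cldn5, and without it 0 of 6 members differed 2-fold, where 4.17% of genes did. The share of kinds moved with these levels, as did cluster 7 of library 3. Within Lcn2-high cells 0 members ranged 2-fold (24.5% of genes did), with Cldn4 at 1.85 and Cldn3 at 1.81. Within Aqp1-high cells Cldn4 ranged 4.57-fold, Cldn5 9.81-fold and Cldn3 2.06-fold (30.6% of genes did), and within cells low in both Cldn4 ranged 3.53-fold (31.8% of genes did). Since no label ties a library to a group, exposure, dissociation and depth cannot be told apart as sources of these differences.

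Tuft-like cells, the chemosensory cells of the lining, held Cldn7, Cldn3, Cldn4 and Cldn2. Only library 3, with 38 of the 65 cells, had at least 20, and there the fold of tuft-like over epithelial-like cells was 1.06 for Cldn7, 0.949 for Cldn3, 0.804 for Cldn4, 0.650 for Cldn2 and 0.999 for Cldn8. No member passed the rule in either direction, where 7.66% of genes were higher and 4.77% lower. Pooled, Cldn7 stood at 743 CPM [690–799] in tuft-like cells. Cldn2 was lower in the few tuft-like cells of libraries 1 and 2, at 62.0 [29.7–114] and 70.0 [19.1–179] CPM in 17 and 10 cells, against 378 and 357 CPM in epithelial-like cells. It was detected in 41.5% of tuft-like and 92.7% of epithelial-like cells, and tuft-like cells had fewer UMIs per cell in each library.

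In the vessels, Cldn5 was highest in lymphatic endothelial-like cells. It stood at 581 [456–731] and 622 [580–666] CPM in the lymphatic cells of libraries 1 and 3, against 185 [161–213] and 172 [150–195] CPM in blood endothelial-like cells of the same libraries, 3.14 and 3.62-fold higher. By this rule 4.36% of 6533 genes were higher and 7.06% lower. Library 2 had only 19 lymphatic cells and was left out of the comparison. A UMI of Cldn5 was present in 66.4% of lymphatic and 16.1% of blood endothelial-like cells. Blood endothelial-like cells are shallow, with a median of 1326 UMIs in library 3, so this share does not count the cells that express the gene.

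Within blood endothelium, cluster 20 carried venous markers and cluster 11 capillary markers, and no arterial cluster was found. Cldn5 stood at 277, 365 and 314 CPM in venous cells, against 152, 83.8 and 105 CPM in capillary cells. Venous cells were higher in each library, 1.83, 4.36 and 3.00-fold, and 2.65-fold [2.23–3.16] pooled, but library 1 missed the 2-fold rule, so that 0 of the 3 members tested were counted, where 1.5% of 4474 genes were higher and 2.32% lower. Cldn15, a claudin outside the 8, had the opposite order, with 1, 0 and 6 UMIs in venous cells, against 51, 21 and 111 UMIs in capillary cells, where its level was 63.9, 42.9 and 121 CPM. Lymphatic cells also held Cldn11, known from myelin and testis, at 67.0 CPM in library 3, with 90 of the 135 UMIs of this gene in all kept cells. The Cldn5 gene lies on chromosome 16 at chr16:18776847-18778262 on the plus strand, and its promoter is shown for its contrast with the epithelial genes. Its window holds 0 AP-1 and 0 TATA box matches, 1 grainyhead match beginning 20 bases before the start, where 4.2% of promoters hold that motif, and 1 GC box match.
Cldn5, chr16:18776597-18776896, plus strand: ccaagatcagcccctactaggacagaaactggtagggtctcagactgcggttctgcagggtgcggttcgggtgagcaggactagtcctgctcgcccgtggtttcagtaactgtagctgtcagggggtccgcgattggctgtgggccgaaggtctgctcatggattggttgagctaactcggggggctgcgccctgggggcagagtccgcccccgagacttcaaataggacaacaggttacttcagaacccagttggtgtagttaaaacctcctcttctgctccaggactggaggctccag

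**Figure D5:**
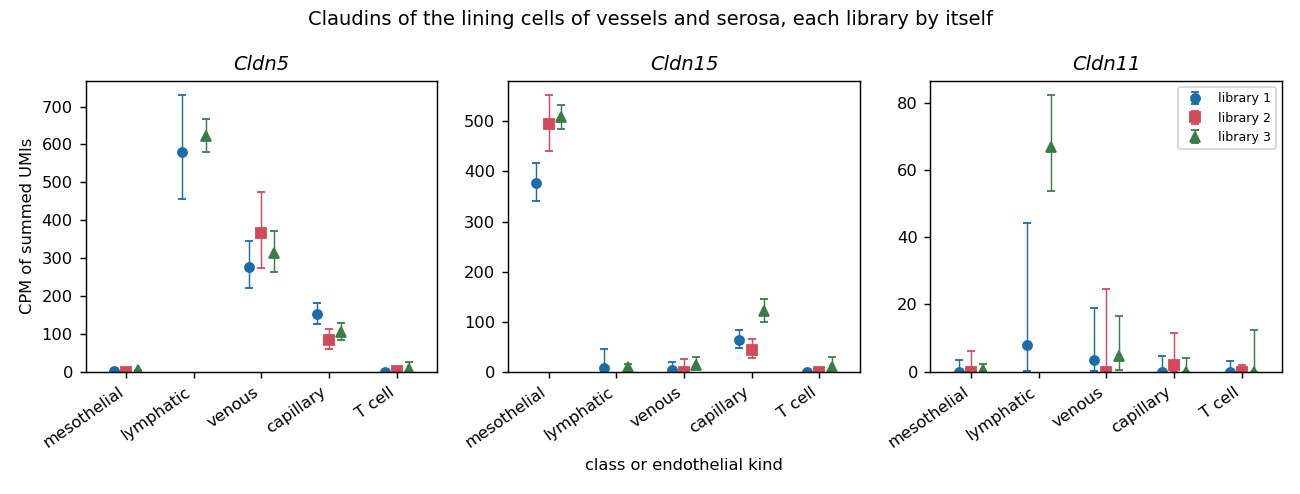
Level (CPM, linear axis) of Cldn5, Cldn15 and Cldn11 in mesothelial-like, lymphatic, venous, capillary and T cell-like cells. Points are libraries with at least 20 cells of the type and bars are 95% Poisson intervals, so Cldn5 is seen at 581 and 622 CPM in lymphatic cells and 83.8 to 152 CPM in capillary cells, and Cldn15 at 377 to 509 CPM in mesothelial-like cells.

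Mesothelial-like cells, the outer covering of the organ, carried pore-forming claudins. Cldn10, whose isoforms pass cations or anions in the kidney, stood at 36.4, 35.8 and 49.8 CPM in mesothelial-like cells, and 45.3 CPM [39.6–51.6] pooled. Epithelial-like cells held 1, 0 and 10 UMIs of it, which is 0.0637 CPM pooled. As counted, the pooled mesothelial level was 710-fold [389–1443] higher. T cell-like cells held 1 UMI of it, 0.301 CPM [0.00761–1.67] pooled. The epithelial value is thus not told apart from stray RNA, and the fold carries no exact size. Cldn2 stood at 211, 289 and 214 CPM in mesothelial-like cells, below the epithelium, with a fold of 0.558, 0.812 and 0.361, and far above the 5.94, 18.4 and 50.5 CPM of T cell-like cells. Cldn15 was the most abundant claudin there, at 377, 494 and 509 CPM, and took 52.4% of the mesothelial claudin UMIs, with Cldn2 at 24.3%. Cldn1, the claudin of the skin barrier, stood at 12.5, 22.8 and 32.7 CPM.

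Against the epithelium, 1 of 6 members tested was higher in mesothelial-like cells, Cldn10, where 13.2% of genes were, and 4 were lower, Cldn3, Cldn4, Cldn7 and Cldn8, where 8.9% were. Against fibroblast-like cells, which also lie outside the epithelium, Cldn2 was 20.8, 17.5 and 5.58-fold higher, Cldn1 2.10, 7.74 and 2.25-fold, and Cldn10 22.4-fold in library 3 and 38.1-fold [24.8–61.4] pooled. These are 3 of 6 members, where 7.49% of genes were higher and 9% lower. Mesothelial Cldn7 stood at 52.7, 119 and 35.7 CPM and Cldn3 at 69.0, 89.4 and 18.9 CPM. The summed epithelial markers stood at 50.6%, 51.6% and 46.9% of the epithelial level in these cells, which hold keratins of their own, so the part of stray RNA in Cldn7 and Cldn3 was not tested.

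Cldn1 was found chiefly outside epithelium and endothelium. Dendritic-like cells had the highest level, 156, 85.6 and 71.9 CPM in libraries 1, 2 and 3, and 114 CPM [97.8–131] pooled. A UMI of it was present in 73.3%, 34.0% and 19.5% of these cells, whose median depth was 16317, 7167 and 4773 UMIs. An unnamed cluster of 625 cells, led by the antigen-presentation genes Cd74, H2-Eb1 and H2-Ab1, came next at 47.2, 40.1 and 53.8 CPM, or 45.1 CPM pooled from 178 UMIs, close to the 184 UMIs of dendritic-like cells. After mesothelial-like cells at 27.2 CPM pooled came neutrophil-like cells at 11 CPM [6.94–16.4] and fibroblast-like cells at 9.03 CPM, whose order is not settled by their intervals. T cell-like cells held 0 UMIs, which allows up to 0.902 CPM.

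Of the other 25 claudin symbols in the matrix, 4 reached 10 CPM and 20 UMIs in some cell type, namely Cldn15, Cldn23, Cldn11 and Cldn12. Cldn23 was an epithelial gene, at 68.1, 55.5 and 57.5 CPM, with 82.6, 75.3 and 95.7 CPM in Lcn2-high cells, against 41.4, 39.1 and 44.6 CPM in Aqp1-high cells. Its fold of 1.996, 1.93 and 2.14 put it just outside the 2-fold rule, on the side of Cldn4 and Cldn8. Cldn12 was spread more widely, at 17.3, 15.3 and 27.7 CPM in epithelial-like and 9.18, 10.9 and 45.9 CPM in blood endothelial-like cells.

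Of 25 other junction genes, 13 were higher and 4 lower in epithelial-like than in blood endothelial-like cells, where 12.9% and 15.9% of all genes were. The 13 include the junction proteins Ocln, Marveld2, Marveld3, Cgn, Tjp3 and Lsr and the adhesion molecules Cdh1 and Cxadr. The 4 were Jam2, Jam3, Esam and Cdh5. Cdh1 was a marker used to name epithelial cells and Cdh5 one for blood endothelium. The counts of 13 and 4 include both, although the naming favoured their direction and the fold of Cdh1. Cdh1, the E-cadherin of epithelia, was 13.4, 10.1 and 6.69-fold higher, as counted below the folds of Cldn2, Cldn3, Cldn4 and Cldn7 in every library. The gap was small to Cldn3 in library 1 and to Cldn4 in library 2, so the order is not settled there. The scaffold Tjp1 (ZO-1) stood at 256, 212 and 206 CPM in epithelial-like cells, against 317, 219 and 326 CPM in blood endothelial-like cells, and the adhesion molecule F11r at 288, 276 and 350 CPM and 292, 275 and 490 CPM, so both were shared by the 2 linings. Between Lcn2-high and Aqp1-high cells 1 of 22 junction genes tested was higher, close to the 5.59% of all genes, the scaffold Tjp3 at 74.1, 77.6 and 76.3 CPM in Lcn2-high and 30.3, 28.7 and 34.1 CPM in Aqp1-high cells. Also 1 of 22 was lower, Esam, close to the 3.2% of all genes. Esam stood at 3.22, 4.09 and 11.4 CPM in Lcn2-high and 13.2, 13.4 and 27.0 CPM in Aqp1-high cells. Occludin (Ocln) stood at 134, 126 and 134 CPM in Lcn2-high and 94.9, 98.4 and 121 CPM in Aqp1-high cells.

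The genes whose levels were most like each member were found from Pearson's r of log2(CPM + 10) over 40 points, each a cell type in a library, which share libraries and so are no independent samples. Among 14809 genes ranked, Cldn7 was most like Gsto1 (r = 0.95), Sult1c2 (0.95) and the calcium-binding S100g (0.94), and Cldn3 like Cbr1 (0.94), the surfactant protein gene Sftpd (0.93) and Tstd1 (0.93). Cldn4 was most like the mucin gene Muc4 (0.89), Anxa10 (0.88) and the keratin gene Krt23 (0.87), and Cldn8 like Pof1b, Gal3st2 (0.92 each) and Slc28a3 (0.91). Cldn2 was most like Sh2d4a (0.94), the junction adhesion gene Cxadr and Smpd3 (0.92 each). Cldn5 was most like Ccm2l (0.95), Egfl7 and Btnl9 (0.94 each), with Egfl7 a marker used to name blood endothelium. Cldn10 was most like Slurp1, Gm26873 and Nppb (0.99 each). Outside the mesothelial-like points Cldn10 reached at most 1.36, 0.452 and 3.37 CPM in libraries 1, 2 and 3. Its r thus mostly sets the mesothelial-like points against the rest. Cldn1 was most like Sept3 (0.82), Nccrp1 and Clec9a (0.80 each), with Clec9a a marker used to name dendritic-like cells.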

How the data were processed

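Per the submitters' processing notes, the authors counted reads with Cell Ranger 6.1.1 on GRCm38 (mm10) and deposited raw UMI counts per gene and barcode for 3 joined libraries. How strands or introns were counted is not given in the sources used here. The members and gene lists were chosen with earlier results of these data known. A barcode was kept as a cell when it held 300 genes or more and no more than 20% of its UMIs were mitochondrial, and 3.94% were removed as doublets (scanpy 1.11.5, Scrublet at a threshold of 0.25). Cells were clustered with Leiden on 2000 variable genes and 30 components at resolution 1.0, with claudins left out. Of 37 clusters 34 were named from markers. The cuts for Aqp1 and Lcn2 were set after the spread of those 2 genes was seen. CPM sums UMIs over the cells of a type in a library, with exact Poisson, binomial (Clopper-Pearson) and conditional intervals at 95%. Types with under 50 cells, and libraries with under 20 cells of a type, were not compared. A count of 0 was bounded by 3 counts. The named genes were the 8 members, other claudins that reached 10 CPM and 20 UMIs in a cell type, the 4 junction genes highest in each of epithelium and blood endothelium, and for each member the 3 most like it among genes with 100 UMIs or more. Other junction genes were named after their values were seen. On simulated counts for the 2 main comparisons, the script called 200 of 200 changed genes in the right direction in each. That result concerns the script alone, and spread between animals was not tested. Positions are from GENCODE M21 and promoters from RefSeq. Other settings tried were the fold, the UMI minimum, the cuts, the gate, the gene and mitochondrial limits, kept doublets, the mean over cells, subtraction of the T cell level, thinning, and leaving out each library. Intervals came from scipy 1.17.1 in Python 3.11.15, clusters from leidenalg 0.10.2, and figures from matplotlib 3.10.9.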

Additional observations from a re-analysis of the deposited data

How the results depend on the processing

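Of 83 values recomputed under other settings, 79 kept their count within 1.5 times and 0 reversed. The number of members lower in Lcn2-high than in Aqp1-high cells was 0 at 2-fold and 1, Cldn2, at 1.5-fold. The number that differed between libraries in epithelial-like cells was 3 at 2-fold with the UMI minimum, 1 (Cldn5) at 4-fold, 5 with no UMI minimum, which adds Cldn1 and Cldn10, and between 0 and 3 when 1 library was left out, with 0 without library 3. Cldn4 and Cldn8 were higher in Lcn2-high cells under every setting run. Other folds and UMI minimums do not apply to the cell type of highest level and were not run for it. In every library 6 members were detected in a larger share of epithelial-like than of T cell-like cells. Thinned to 1000 UMIs the number was 5, without Cldn1. No paired analysis was possible because each group is 1 pooled library and no label ties a library to its group. Depth limits the endothelial values, since the median blood endothelial-like cell of library 3 held 1326 UMIs.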

Other observations

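Cldn1 was also read in subsets of the dendritic-like cells. The 139 cells with a UMI of Xcr1 or Clec9a and none of Cd209a, genes of conventional type 1 and type 2 dendritic cells, held Cldn1 at 146, 89.0 and 68.3 CPM in libraries 1, 2 and 3, and 110 CPM [92.3–130] pooled. The 7, 3 and 9 cells with Cd209a alone held 25, 1 and 3 UMIs in libraries 1, 2 and 3, so that library 1 sets their pooled level of 162 CPM. The 22 cells with neither held 95.6 CPM [50.9–164] pooled. The grouping was chosen after the level in dendritic-like cells was seen.

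Cldn34c1 reached 7.47 CPM in blood endothelial-like cells from 23 UMIs, its highest level in any cell type, and stayed under the minimum of 10 CPM. Cldn5 in macrophage-like cells stood at 7.03 CPM pooled, of which 20 UMIs came from 1 cell of library 1.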
